A study of Mus musculus with 12 samples.

Results

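The genes described here encode the adhesion molecules of the adherens junction: the cadherins Cdh1, Cdh2, Cdh3 and Cdh11, the catenins Ctnna1, Ctnnb1 and Ctnnd1, and the nectins Nectin1, Nectin2 and Nectin4. They were chosen by gene symbol, and all 10 were found among the 25861 genes of the count table and passed its filter on low counts, as did 17025 genes in all. RNA was sequenced from organoids of tumours of MMTV-Neu mice, a model in which the Neu (Erbb2) oncogene is placed under a viral promoter active in mammary epithelium. Lentivirus at a multiplicity of infection of 20 gave the organoids a non-targeting short hairpin RNA (labelled shControl, genotype WT; here the control) or 1 of 2 hairpins against Cldn7 (sh1Cldn7 and sh2Cldn7; here hairpin 1 and hairpin 2), with 4 libraries per group. All 3 groups shared selection with puromycin at 3 µg/ml for 3 days, a medium with 2.5 nM FGF2, and 5 days in collagen I. The labels name primary epithelial cells of the mammary gland and do not say how many animals or cultures the libraries came from, so the p-values speak only of the spread among these libraries, part of which may be technical.

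Cadherins are calcium-dependent adhesion proteins whose outer domains bind cadherins of the neighbouring cell. Inside the cell, beta-catenin (Ctnnb1) and p120-catenin (Ctnnd1) bind the cadherin tail, and alpha-catenin (Ctnna1) links beta-catenin to actin. Nectins are immunoglobulin-like adhesion proteins of the same junctions, tied to actin through afadin (Afdn). In the mammary gland E-cadherin (Cdh1) is typical of luminal epithelium and P-cadherin (Cdh3) of basal, myoepithelial cells, while N-cadherin (Cdh2) and cadherin 11 (Cdh11) are known from mesenchymal cells.

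Total counts per library were 34988358 to 76329473, lower in replicates 1 and 2 than in replicates 3 and 4 of every group. Libraries with the same replicate number resembled each other across groups, so the number was kept in the model, and pairs below are libraries with the same number. The check of the labels held in every pair: Cldn7 stood at 101 to 186 CPM (counts scaled to library size) in the control, at 29.0 to 44.2 with hairpin 1 and at 25.4 to 34.7 with hairpin 2. Epithelial markers were abundant, with control means of 1308 CPM for Epcam and 1028 for Krt8. Replicate 4 stood apart in stromal content: its 3 libraries held 3902 to 8532 CPM of 10 fibroblast markers in sum, against 233 to 2221 in the other 9 libraries.

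Over both hairpins P-cadherin and Nectin1 were the members that rose past the threshold, and neither passed with hairpin 1 alone. With 1 library left out at a time, the Cdh3 call was lost in 3 of 12 fits and the Nectin1 call in 9. The abundant E-cadherin and catenins did not pass over both hairpins, which is an average of hairpins whose values differed. On the log2 scale Cdh1 was at -0.16 with hairpin 1 and 0.02 with hairpin 2, and Ctnna1 at 0.06 and -0.12. Over both hairpins Cdh3 rose by 0.86 on the log2 scale (SE 0.14), a fold of 1.81, and Nectin1 by 0.33 (SE 0.06), a fold of 1.26, while E-cadherin and the 3 catenins lay between -0.08 and 0.03. These were 2 of 10 members past the threshold, 2 higher and 0 lower (edgeR's quasi-likelihood test, adjusted p under 0.05 over all genes), against 1.79% of all genes tested (0.84% higher and 0.946% lower). The members' median log2 fold change was 0.04 and that of all genes -0.0024. Summed over the 10 members, the level was 2885 to 3175 CPM in the 12 libraries.

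**Figure D1:**
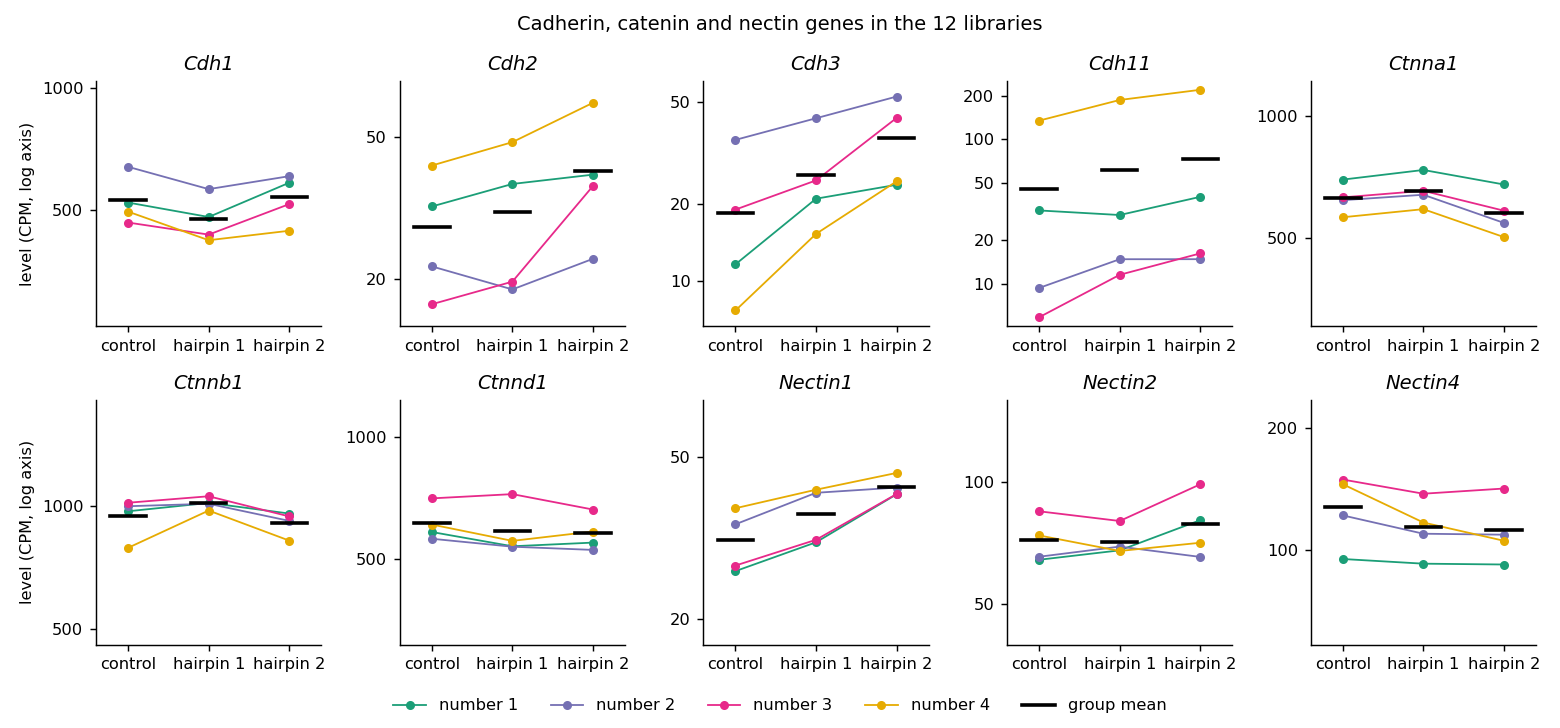
Level of each gene in CPM (log axis, range set per panel) in the control, hairpin 1 and hairpin 2 groups. Points are libraries, lines join libraries with the same replicate number and black bars are group means. The Cdh3 and Nectin1 lines rise in all 4 numbers, and the Cdh11 panel shows replicate 4 at 135 to 220 CPM, far above the other numbers.

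Between genes, levels were compared per kilobase of exon (RPKM, from CPM and the length of all annotated exons merged). In the control the order was Ctnnb1 at 182 ± 20.3 RPKM (SD, n = 4), Cdh1 at 116 ± 16.6, Ctnna1 at 97.7 ± 8.53, Ctnnd1 at 84.1 ± 8.70, Nectin4 at 34.1 ± 6.66 and Nectin2 at 20.6 ± 2.69. Nectin1 at 5.53 ± 0.97, Cdh11 at 5.11 ± 6.80, Cdh3 at 4.20 ± 2.81 and Cdh2 at 3.48 ± 1.35 RPKM followed. The ranges of the 4 control libraries overlapped between Cdh1 and Ctnna1, between Ctnna1 and Ctnnd1, and among Nectin1, Cdh11, Cdh3 and Cdh2. They did not overlap between Ctnnb1 and Cdh1, between Ctnnd1 and Nectin4, or between Nectin4 and Nectin2. Cdh1 made up 83.1 to 93.5% of the summed RPKM of the 4 cadherins in the control libraries.

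Cdh3 (NCBI Gene 12560; chromosome 8, 106510891 to 106557297, GRCm38, plus strand, protein-coding) stood at 11.6, 35.5, 18.9 and 7.63 CPM in control replicates 1 to 4. The values were 20.9, 43.2, 24.6 and 15.2 CPM with hairpin 1 and 23.7, 52.5, 43.3 and 24.4 CPM with hairpin 2. The groups overlapped, since replicate 2 was high in each of them, but within every number the order was control, hairpin 1, hairpin 2. Cdh3 was higher than its control in 8 of 8 pairs, and its rise over both hairpins passed (edgeR adjusted p = 0.0183). With hairpin 2 alone it rose by 1.11 (SE 0.16; edgeR adjusted p = 0.0052), and with hairpin 1 the value was 0.61 (SE 0.16; edgeR adjusted p = 0.12). The smallest change was in replicate 2, where the control was highest: 0.28 with hairpin 1 and 0.56 with hairpin 2, against 1.00 and 1.68 in replicate 4, where the control was lowest. Each change is measured from that same control library, so a high control by itself makes it smaller. Whether the change depends on the control level was not tested. The call over both hairpins was lost without control replicate 1, 3 or 4 (edgeR adjusted p = 0.0836, 0.0642 and 0.0724) and without the replicate number in the model (edgeR adjusted p = 1), where the log2 fold change was 0.73. Replicates 1 and 2 alone gave 0.66 and replicates 3 and 4 alone 1.07, neither past the threshold (edgeR adjusted p = 0.12 and 0.0727).

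Markers of basal cells were counted beside Cdh3. Of 10 basal markers, 2 rose over both hairpins in edgeR, the smooth muscle genes Cnn1 (1.83, SE 0.30) and Myh11 (1.58, SE 0.29), 0 fell and 9 had a positive sign, with a median of 0.51. The basal transcription factor Trp63 was at 0.47 (SE 0.11; edgeR adjusted p = 0.0587). With hairpin 2, 4 of the 10 rose and 0 fell in edgeR: Cnn1 (2.49), Myh11 (2.03), the smooth muscle actin Acta2 (1.14, SE 0.23; edgeR adjusted p = 0.0193) and Trp63 (0.56, SE 0.12; edgeR adjusted p = 0.027). Of all genes, 5.76% passed with hairpin 2 in edgeR (2.83% higher and 2.93% lower), and 1.79% over both hairpins. DESeq2 with the replicate number called 4 higher over both hairpins and 5 with hairpin 2, and 0 lower in either. It called 1161 and 1860 of all 17025 genes in these comparisons, in either direction. None of the 10 was at 0 in any library, and their summed level was 986 to 3781 CPM in the control, 1286 to 3508 with hairpin 1 and 2145 to 3546 with hairpin 2. In replicate 3 the sum was 986 CPM in the control and 2754 with hairpin 2, where Cdh3 went from 18.9 to 43.3. In replicate 2 the sum was lower with both hairpins, at 3508 and 3546 against 3781 CPM, while Cdh3 was higher, at 43.2 and 52.5 against 35.5. The single markers were split there. Krt14, Krt17, Oxtr and Lgr6 were lower with both hairpins, and Krt5, Trp63, Acta2, Mylk, Cnn1 and Myh11 were higher. In bulk samples fewer cells of a type and less RNA per cell cannot be told apart, and the part of basal cell number in the Cdh3 rise was not tested.

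**Figure D2:**
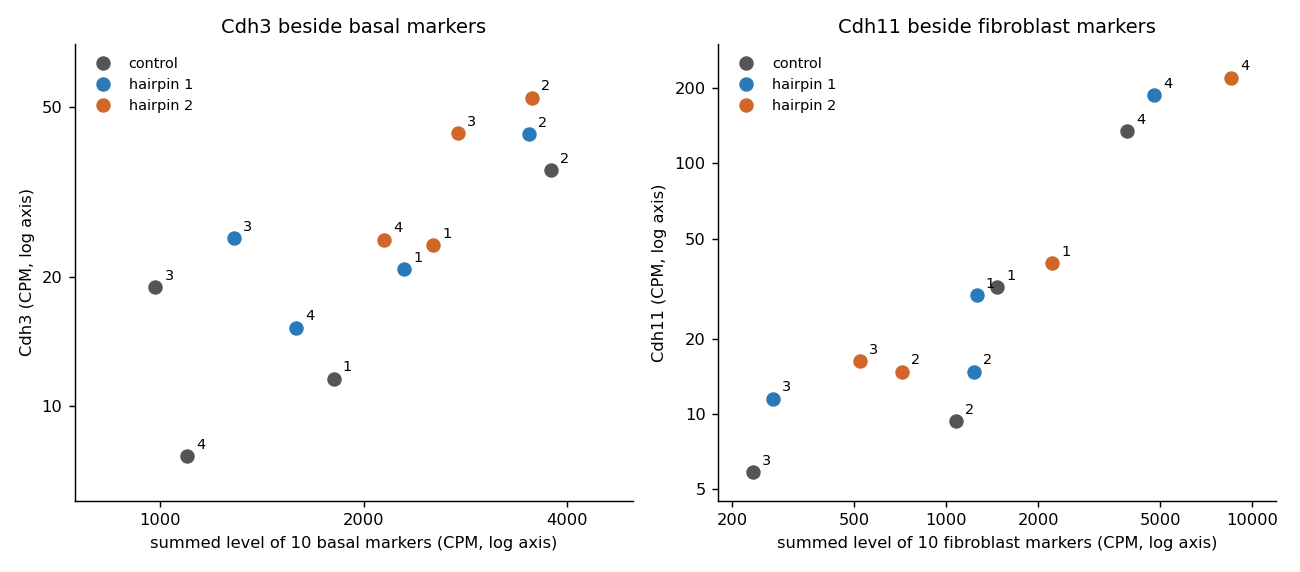
Left, Cdh3 against the summed level of 10 basal markers, and right, Cdh11 against that of 10 fibroblast markers, all in CPM on log axes. Each point is a library, coloured by group and labelled with its replicate number. Cdh11 and the fibroblast sum are both highest in replicate 4. In replicate 2 Cdh3 is higher with the hairpins at a lower basal sum, where Krt14, Krt17, Oxtr and Lgr6 fell and the other basal markers rose.

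Cdh1 (NCBI Gene 12550; chromosome 8, 106603351 to 106670246, GRCm38, plus strand), which lies 46053 bases beyond the end of Cdh3 on the same strand, was the most abundant of the 4 cadherins. It stood at 522, 639, 466 and 496 CPM in control replicates 1 to 4, at 481, 563, 435 and 422 with hairpin 1, and at 584, 606, 517 and 445 with hairpin 2. The groups overlapped throughout. Over both hairpins the log2 fold change was -0.07 with a 95% interval of -0.19 to 0.05 (edgeR adjusted p = 0.565). With hairpin 1 Cdh1 was lower in 4 of 4 pairs, at -0.16 (SE 0.06), which did not pass (edgeR adjusted p = 0.328). With hairpin 2 it was higher in 2 of 4 pairs, at 0.02 (SE 0.06). The Cdh1 to Cdh3 ratio in RPKM was 43.2, 17.2, 23.6 and 62.2 in control replicates 1 to 4, 22.1, 12.5, 16.9 and 26.5 with hairpin 1, and 23.6, 11.1, 11.5 and 17.4 with hairpin 2. It was thus lower with each hairpin in every number, as a description of 2 members chosen together.

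Cdh2, the cadherin of neurons and mesenchymal cells, stood at 31.9, 21.7, 17.0 and 41.5 CPM in control replicates 1 to 4. It stood at 36.9, 18.7, 19.7 and 48.2 CPM with hairpin 1 and at 39.2, 22.8, 36.4 and 62.1 CPM with hairpin 2. The groups overlapped, and 7 of 8 pairs were higher than their control, the exception being hairpin 1 replicate 2. Its fitted value on the log2 scale was 0.31 over both hairpins (SE 0.12; edgeR adjusted p = 0.23) and 0.52 with hairpin 2 (SE 0.14; edgeR adjusted p = 0.0608), and neither passed. The hairpin 2 value passed without control replicate 2 (edgeR adjusted p = 0.029) or hairpin 2 replicate 2 (0.0427), without the filter on low counts (0.0374) and in DESeq2 with the replicate number (0.00945). Replicates 1 and 2 alone gave 0.18 for hairpin 2 (edgeR adjusted p = 0.563) and replicates 3 and 4 alone 0.86 (0.054).

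Cdh11 (NCBI Gene 12552; chromosome 8, 102632095 to 102785642, GRCm38, minus strand), a cadherin of fibroblasts and bone-forming cells, varied most of the members, by 37.6-fold between the lowest and highest library. Its levels were 32.1, 9.33, 5.85 and 135 CPM in control replicates 1 to 4, 29.9, 14.8, 11.5 and 187 with hairpin 1, and 39.9, 14.8, 16.2 and 220 with hairpin 2. Replicate 4 was the highest in every group, and 7 of 8 pairs were above their control, with hairpin 1 replicate 1 below. Cdh11 rose with hairpin 2 by 0.76 (SE 0.16; edgeR adjusted p = 0.0243), but not past the threshold over both hairpins (0.62, SE 0.14; edgeR adjusted p = 0.0605). The hairpin 2 call was lost without control replicate 3 or 4 or hairpin 2 replicate 1 or 4 (edgeR adjusted p = 0.0503, 0.0653, 0.0504 and 0.0644) and without the replicate number (edgeR adjusted p = 1). The value over both hairpins passed without control replicate 1 (edgeR adjusted p = 0.0424) or hairpin 2 replicate 3 (0.0382), without the filter on low counts (0.0295) and in DESeq2 with the replicate number (0.00067). With all 3 libraries of replicate 4 left out, the hairpin 2 value was 0.79 (edgeR adjusted p = 0.12). The hairpin 2 call was also lost without replicate 2 or replicate 3 of every group (edgeR adjusted p = 0.0621 and 0.0576). It was lost with only the groups compared in the fit as well (0.106), and held without replicate 1 of every group.

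Fibroblast markers were counted beside Cdh11. Of 10 of them, 1 rose over both hairpins in edgeR, the collagen Col14a1 (1.07, SE 0.20), 0 fell and 9 had a positive sign. With hairpin 2 there were 2, Col14a1 and the proteoglycan Dcn (1.02, SE 0.17). Of all genes, 1.79% passed over both hairpins and 5.76% with hairpin 2 in edgeR. DESeq2 with the replicate number called 3 higher and 0 lower in each of these comparisons, where it called 1161 and 1860 of all 17025 genes. The summed level was 233 to 3902 CPM in the control, 272 to 4792 with hairpin 1 and 524 to 8532 with hairpin 2, highest in replicate 4 of each, and no marker was at 0 in any library. In replicate 2 the fibroblast sum was 1074 CPM in the control and 716 with hairpin 2, while Cdh11 was 9.33 and 14.8 CPM. The lower sum lay in Col1a1, at 559 and 293 CPM, Col1a2, at 426 and 294, and Lum. The other fibroblast markers, Col3a1, Dcn, Pdgfra, Fap, Dpt, Thy1 and Col14a1, were higher with hairpin 2 in that replicate. Of 8 pericyte markers, 1 rose over both hairpins in edgeR, Pdgfrb (0.47, SE 0.10), and 0 fell. With hairpin 2 there were 2, Pdgfrb (0.67, SE 0.11) and Cspg4 (0.74, SE 0.18), and 0 fell. DESeq2 with the replicate number called 3 pericyte markers higher over both hairpins and 5 with hairpin 2, and 0 lower in either. The part of stromal cells in the Cdh11 values was not tested.

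None of the 3 catenins passed in edgeR, and their intervals were narrow. Ctnnb1 stood at 790 to 1019 CPM in the control, 975 to 1057 with hairpin 1 and 822 to 959 with hairpin 2, and over both hairpins it was at 0.03 on the log2 scale (95% interval -0.09 to 0.15). Ctnna1 stood at 564 to 697, 590 to 736 and 504 to 678 CPM in the same order, with -0.03 (-0.13 to 0.06) over both hairpins. Ctnnd1 stood at 562 to 706, 537 to 724 and 528 to 663 CPM, with -0.08 (-0.18 to 0.03). Each hairpin group overlapped the control, although for Ctnnb1 all 4 hairpin 1 libraries lay above all 4 hairpin 2 libraries. Ctnna1 was higher with hairpin 1 in 4 of 4 pairs, by 0.04 to 0.08 on the log2 scale, and lower with hairpin 2 in 4 of 4 pairs, at -0.19 to -0.04. The direct difference, hairpin 2 minus hairpin 1, was -0.18 for Ctnna1 (SE 0.05; edgeR adjusted p = 0.0739) and -0.16 for Ctnnb1 (SE 0.06; edgeR adjusted p = 0.178), lower in 4 of 4 pairs for both. DESeq2 with the replicate number called Ctnna1 lower with hairpin 2 than in the control (-0.13, adjusted p = 0.0282) and than with hairpin 1 (-0.19, adjusted p = 0.000381).

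**Figure D3:**
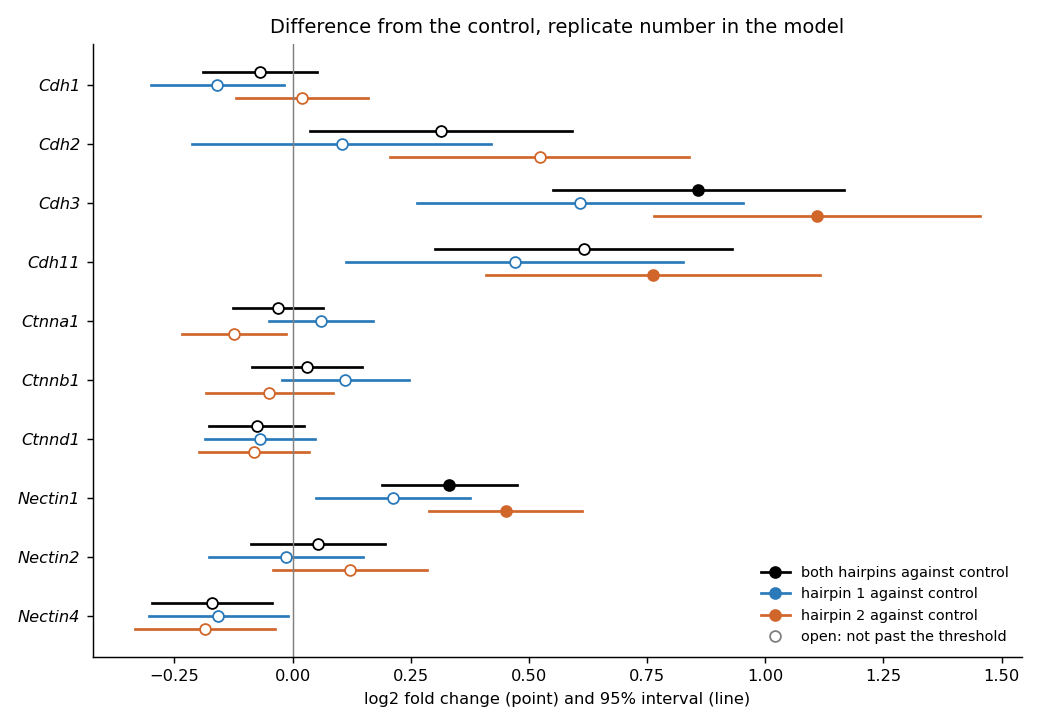
Log2 fold change against the control (points) with 95% intervals (lines) for the 10 genes, for both hairpins and for each hairpin, with the replicate number in the model. Filled points passed the threshold: Cdh3 and Nectin1 over both hairpins and with hairpin 2, and Cdh11 with hairpin 2; the catenin intervals lie between -0.23 and 0.25.

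Nectin1 (NCBI Gene 58235; chromosome 9, 43743984 to 43807461, GRCm38, plus strand), which also serves as a receptor for herpes simplex virus, rose over both hairpins. It stood at 26.2, 34.2, 27.1 and 37.4 CPM in control replicates 1 to 4, at 30.9, 40.9, 31.3 and 41.6 with hairpin 1, and at 40.5, 42.1, 40.6 and 45.7 with hairpin 2. All 4 hairpin 2 libraries lay above all 4 controls, while hairpin 1 overlapped both groups. The rise in 8 of 8 pairs passed over both hairpins (0.33, SE 0.06; edgeR adjusted p = 0.0319) and with hairpin 2 (0.45, SE 0.07; edgeR adjusted p = 0.00905), and the hairpin 1 value of 0.21 (SE 0.07) did not (edgeR adjusted p = 0.252). The hairpin 2 call held whichever single library was left out, but not with all 3 libraries of replicate 1 left out (edgeR adjusted p = 0.0765) or with only the groups compared in the fit (0.0863). The call over both hairpins was lost without control replicate 1, 2, 3 or 4 (edgeR adjusted p = 0.135, 0.0552, 0.117 and 0.0776), hairpin 1 replicate 1, 2, 3 or 4 (0.068, 0.0844, 0.0607 and 0.077) or hairpin 2 replicate 1 (0.0556), and both calls without the replicate number (edgeR adjusted p = 1). The log2 fold change over both hairpins stayed between 0.30 and 0.37 in these fits.

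Nectin4, the nectin of highest level here, moved the other way without passing. It stood at 95.2, 122, 149 and 145 CPM in control replicates 1 to 4, at 92.7, 110, 138 and 117 with hairpin 1, and at 92.2, 109, 142 and 106 with hairpin 2, so it was lower in 8 of 8 pairs although the groups overlapped. The fitted difference for both hairpins was -0.17 on the log2 scale (SE 0.06; edgeR adjusted p = 0.155). Nectin2, a ligand of immune receptors as well as an adhesion protein, stood at 64.3 to 84.6, 67.6 to 80.1 and 65.4 to 98.6 CPM in the 3 groups, with 4 of 8 pairs higher and a log2 fold change of 0.05 (SE 0.06; edgeR adjusted p = 0.717). Of the summed RPKM of these 3 nectins, Nectin1 made up 9.26 ± 1.59% in the control, 11.3 ± 2.02% with hairpin 1 and 12.7 ± 1.98% with hairpin 2 (SD, 4 libraries each). The share of Nectin4 was 56.3 ± 2.68%, 53.0 ± 2.76% and 49.8 ± 3.46%.

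**Figure D4:**
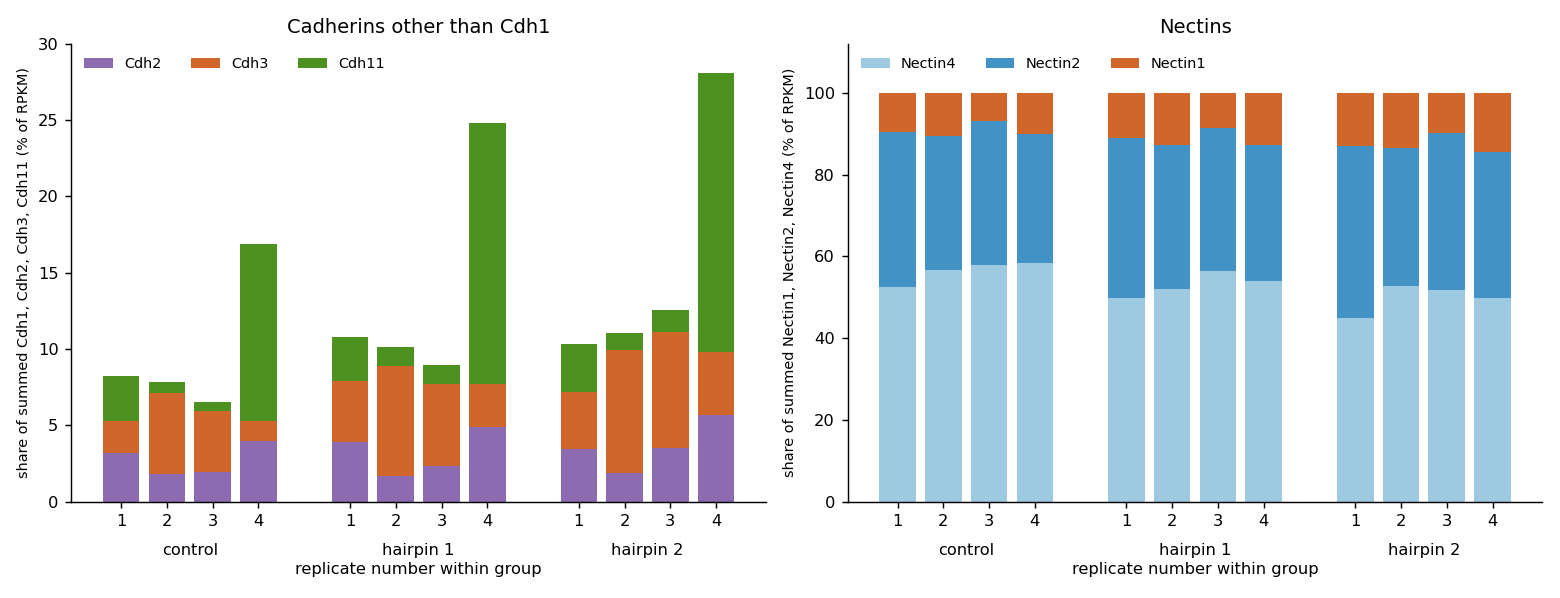
Left, the share of Cdh2, Cdh3 and Cdh11 in the summed RPKM of 4 cadherins (Cdh1 is the rest up to the whole), and right, the shares of 3 nectins, in percent for each of the 12 libraries. The Cdh11 share reaches 11.6 to 18.3% in replicate 4 only, and Nectin1 shares are larger with each hairpin than in the control of the same number.

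By hairpin, 0 of 10 members passed with hairpin 1 in edgeR, against 0.728% of all genes (0.382% higher and 0.347% lower). Of the members, 5 had an unadjusted p under 0.05 there, and DESeq2 with the replicate number called 1, Cdh3 (0.61, adjusted p = 0.00855). With other scalings in edgeR, 5 members and 2169 of all 17025 genes were under 0.05 (RLE size factors), or 3 members and 2137 genes (upper quartile). DESeq2 called 607 of all genes. With hairpin 2, 3 of 10 members rose and 0 fell, Cdh3, Cdh11 and Nectin1, against 5.76% of all genes (2.83% higher and 2.93% lower). Between the hairpins, 0 of 10 passed in edgeR, against 3.44% of all genes (1.57% higher and 1.87% lower), with 6 at an unadjusted p under 0.05. DESeq2 called 2, Cdh3 (0.49, adjusted p = 0.0297) and Ctnna1 (-0.19, adjusted p = 0.000381). For this comparison 6 members and 3417 of all 17025 genes were under 0.05 in edgeR with RLE size factors, and DESeq2 called 1436 of all genes. Hairpin 2 lay above hairpin 1 in 4 of 4 pairs for Cdh1, Cdh2, Cdh3, Cdh11 and Nectin1. The difference was 0.50 for Cdh3 (SE 0.15; edgeR adjusted p = 0.106), 0.24 for Nectin1 (SE 0.07; 0.108) and 0.18 for Cdh1 (SE 0.06; 0.151). The comparisons with the control share the same 4 control libraries.

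Other genes of the junction were counted over both hairpins, where 1.79% of all genes tested passed in edgeR. Of 21 linkers and anchors of the cytoplasmic side, 19 were tested and 1 rose, the afadin- and alpha-actinin-binding Ssx2ip (0.30, SE 0.06; edgeR adjusted p = 0.0397), with a median of 0.07. Afdn, the partner of the nectins, was at 0.05 (SE 0.07). Of 18 further cadherins, 9 were tested and 0 passed (edgeR), Cdh19, a cadherin of Schwann cells, having the smallest p (-0.65, SE 0.22; edgeR adjusted p = 0.168). Of 10 further nectins and nectin-like genes, 7 were tested and 0 passed over both hairpins, and Cadm1, a nectin-like adhesion gene, rose with hairpin 2 (0.36, SE 0.08; edgeR adjusted p = 0.0356). Of 12 genes of cadherin turnover 0 passed over both hairpins, while Adam10, the protease that sheds E-cadherin, was higher with hairpin 2 than with hairpin 1 (0.32, SE 0.06; edgeR adjusted p = 0.0141). Against the control Adam10 was at 0.05 with hairpin 2 (edgeR adjusted p = 0.671) and at -0.28 with hairpin 1 (edgeR adjusted p = 0.059). Over both hairpins the further cadherins, nectins and turnover genes held 1, 2 and 3 genes at an unadjusted p under 0.05 in edgeR, and DESeq2 with the replicate number called 0, 1 and 2 of them. Of all 17025 genes, 2936 were under 0.05 in edgeR with RLE size factors, and DESeq2 called 1161.

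Regulators and readouts were counted the same way. Of 9 known repressors of Cdh1, 0 passed over both hairpins, 7 had a positive sign and the median was 0.18; Snai2 rose with hairpin 2 (0.99, SE 0.18; edgeR adjusted p = 0.0146), where Cdh1 was at 0.02. Of 8 negative regulators of beta-catenin, 7 tied to its degradation and Ctnnbip1, which blocks its binding to TCF factors, 0 passed over both hairpins in edgeR. Of these repressors of Cdh1 and regulators of beta-catenin, 3 each had an unadjusted p under 0.05 in edgeR, and DESeq2 called 1 repressor and 0 regulators. Of 16 genes known as targets of WNT and beta-catenin signalling, 15 were tested and 1 rose in edgeR, the receptor Lgr5 (1.30, SE 0.23; edgeR adjusted p = 0.0247), and 0 fell, while DESeq2 with the replicate number called 3 higher and 1 lower. With hairpin 2 in edgeR, Lgr5 (1.62, SE 0.25) and the feedback inhibitor Nkd1 (1.14, SE 0.26) rose and the transcription factor Lef1 fell by 0.59 (SE 0.10), while the feedback gene Axin2 was at 0.68 (SE 0.59; edgeR adjusted p = 0.543). Of all genes, 2.83% were higher and 2.93% lower past the threshold in that comparison. Of 11 luminal markers, 1 fell over both hairpins in edgeR, Epcam, by 0.25 (SE 0.05; edgeR adjusted p = 0.0485), and 0 rose. Of the markers of endothelium (8 tested), macrophages (10), lymphocytes (7) and Schwann cells (6), 0 passed over both hairpins in edgeR, with medians of 0.19, -0.11, -0.42 and -0.35. In the same order edgeR gave 2, 0, 0 and 2 at an unadjusted p under 0.05, while 1, 0, 0 and 1 were called by DESeq2. All such counts over both hairpins stand beside 2936 (edgeR with RLE size factors) and 1161 (DESeq2) of all 17025 genes.

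The genes most like each member were found from log2 CPM over the 12 libraries after the mean of each replicate number was subtracted, among 12386 genes. For Cdh3 they were Slc27a3 (Pearson's r = 0.984, Spearman's rho = 0.986), Tenm2 (0.981 and 0.979) and Fat2 (0.978 and 0.993). For Nectin1 they were Map3k3 (r = 0.981, rho = 0.951), Nlk (0.971 and 0.951) and Hdhd5 (0.967 and 0.951). For Cdh1 they were Klhl24 (r = 0.979, rho = 0.965), Rsrp1 (0.97 and 0.972) and Msl2 (0.965 and 0.93). These values are the highest of many and describe the 12 libraries, which share their groups and scaling. Slc27a3, Tenm2 and Fat2 were at 0.46, 1.03 and 0.97 over both hairpins, where Cdh3 was at 0.86, and the 3 genes nearest to Cdh1 were at -0.10 to -0.04.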

How the data were processed

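The authors deposited unnormalized counts of reads per gene for 12 libraries. Per the submitters' processing notes, the build was mm10 and the tools included DESeq2 1.34.0, FastQC 0.74 and Trimmomatic 0.39, with no roles stated. The aligner, annotation and strand setting were not given in the sources used here. Genes were filtered with edgeR's filterByExpr (17025 kept, 8836 left out), and TMM scaling was used. The test was that of edgeR 4.0.16 (R 4.3.3; glmQLFit and glmQLFTest) over all 12 libraries with group and replicate number in the model, Benjamini-Hochberg adjustment over all genes and a threshold of 0.05. DESeq2 1.42.0 was an alternative. The members, lists and tests were chosen with earlier results of these data known. Genes named were the 10 members, Cldn7, list genes past the threshold over both hairpins or among the 4 of smallest p, and the 3 genes most like Cdh1, Cdh3 and Nectin1 with a mean of at least 2 CPM and a proper name (no Gm, Rik or LOC symbol). Afdn, Axin2 and Krt8, and the further basal and fibroblast markers named for replicate 2, fall outside this rule and were chosen after their values were seen. Alternatives were DESeq2, other scalings, no filter, no replicate number, fewer groups or replicates, and each library left out.

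The replicate numbers come from the titles. Deviations of log2 CPM (prior count 2) from the group means correlated at 0.855 to 0.916 between same-numbered libraries of different groups, and at -0.807 to 0.727 otherwise, and each of the 12 libraries correlated best with one of its own number. The chi-square of counts per degree of freedom between libraries of a group was 41 to 480, so none was a duplicate. It was 41 to 49.5 between replicates 1 and 2 and 291 to 480 between all other pairs. Replicates 1 and 2, which also had the lower total counts, were thus the most alike in every group, and the reason was not tested. The model was tested on counts simulated from its own fit, for both hairpins against the control over 16784 genes. Replicate effects were the same in every group, and the spread followed its trend with level. The genes changed had a mean count of at least 100 and changed equally with both hairpins. In that setting 46% of genes changed by 1.25-fold were recovered, 90% by 1.5-fold, 96% by 2-fold and 100% by 4-fold. Of the 177 genes called, 6.21% were false. These rates describe the simulation and need not hold for the real libraries.

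Exons and coordinates are from GENCODE M21 on GRCm38. Merged exons of Ctnnd1 overlap the transcript Gm28635 of the same strand over 61.2%, and those of Ctnnb1 overlap Ulk4 of the opposite strand over 14.6% (Ulk4 had 61 to 166 counts per library). Ctnnd1 is uncertain, since the annotation used for counting is not stated and a strand setting would not separate reads shared with a transcript of the same strand. Reads of Ctnnb1 and Ulk4 cannot be told apart without a strand setting. For the other 8 members at most 1.94% of 50-base windows of their transcripts occurred in other genes.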

Additional observations from a re-analysis of the deposited data

Results flagged for a closer look

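Among 30 sets of 4 libraries (10 genes in 3 groups) 2 held a library far from the rest, where chance gives about 1 in 20. Ctnnd1 stood at 723.6 CPM in hairpin 1 replicate 3, against 537 to 555 in the other 3 hairpin 1 libraries, and Nectin2 at 80.1 CPM in the same library, against 67.6 to 69.3. In the control and hairpin 2 groups replicate 3 was also the highest for both genes, with Ctnnd1 at 706 and 663 CPM and Nectin2 at 84.6 and 98.6 CPM.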

How the results depend on the processing

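Of 40 member values (10 genes in 4 comparisons), 29 kept their side of the threshold under every setting run, and none past the threshold changed sign. Without the replicate block, the members past the threshold numbered 0 over both hairpins and 0 with hairpin 2, against 2 and 3, and the genes past it 1 in each of the 4 comparisons. At an unadjusted p under 0.05, edgeR without the block gave 406, 307, 606 and 490 genes (both hairpins, hairpin 1, hairpin 2, and between hairpins). In that order the counts of all genes were 304, 124, 981 and 585 with the block, 1161, 607, 1860 and 1436 in DESeq2 with the block, and 43, 27, 61 and 49 in DESeq2 without it. DESeq2 with the block called 1 member with hairpin 1, 5 with hairpin 2 (Cdh2 and Ctnna1 added) and 2 between hairpins; without it, 0 over both hairpins and 0 with hairpin 2. Replicates 1 and 2 alone gave 25, 9, 82 and 84 genes, with 0 members over both hairpins and 0 with hairpin 2. Replicates 3 and 4 alone gave 5, 1, 327 and 42 genes, with 0 members over both hairpins. With both hairpins as 1 group, 48 genes and 0 members passed (Cdh3 adjusted p = 0.102, Nectin1 0.154). With only the groups compared, 390 genes and 1 member (Cdh3) passed with hairpin 1, and 97 genes and 1 member with hairpin 2. With 1 library left out, members past the threshold numbered 0 to 3 over both hairpins, 0 to 0 with hairpin 1, 2 to 4 with hairpin 2 and 0 to 0 between hairpins, and all genes 39 to 554, 2 to 344, 342 to 1076 and 165 to 672. Leaving out all libraries of 1 replicate number, a setting chosen after seeing the data, gave 0 to 1, 0, 2 and 0 members. Without replicate 1, 2, 3 or 4 in turn, the genes numbered 26, 200, 151 and 30 over both hairpins, 2, 1, 81 and 6 with hairpin 1, 212, 826, 442 and 185 with hairpin 2, and 66, 198, 282 and 158 between hairpins. The cause of these differences was not tested. The median of all genes moved by at most 0.0118 (log2) with other scalings.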
